A study of Mus musculus with 4 samples.

Results

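Classical monocytes of the mouse liver were taken from 2 gene expression libraries as the cells that carried counts of *Ly6c2*, *Lyz2* and *Ccr2* together. Of 35682 cells that passed the quality limits, 180 met the rule. The tdTomato+ library gave 98 of 17509 cells (0.560%, 95% interval 0.455 to 0.682) and the control library 82 of 18173 cells (0.451%, 0.359 to 0.560). A member had at least 300 detected genes, at most 10% of its counts in mitochondrial genes, at least 5 counts of unique molecular identifiers (UMIs) of *Lyz2*, at least 2 of *Ly6c2* and at least 1 of *Ccr2*. It had no count of *C1qa*, *Treml4*, *Cd79a* or *Siglech* and at most 1 count each of *Csf3r* and of *Cd3d*, *Cd3e* and *Cd3g* summed. The members were thus selected on measured counts of these genes, which describe the cells and are not a finding.

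The mice were 2 months old, carried the alleles *Stab2-CrexERT2* and *R26-LSL-tdT*, and had received tamoxifen at embryonic day 9.5, so both groups share these alleles and this agent. CD45+ cells were sorted from the liver. The submitters label the genotype S2 in both. One sort was labelled as CD45+ cells with the red reporter. The other was labelled only as CD45+ liver cells, and the protocol gives its sort as tdTomato−. In this model Cre is driven from the *Stab2* locus, a gene of sinusoidal and yolk sac endothelium, and a cell in which it is active at the time of tamoxifen passes tdTomato on to its descendants. Each group is 1 library, labelled batch 1 for tdTomato+ and batch 2 for control, so the sort, the batch and the library cannot be told apart. The animals behind a library cannot be separated by barcode, and tdTomato itself was not among the genes of the files. There was therefore no test, and every 95% interval covers counting error only.

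Classical monocytes are made in the bone marrow, leave it with the help of the chemokine receptor CCR2 and circulate in the blood for a short time. They carry high Ly6C on their surface, enter inflamed or injured tissue, and can become macrophages or antigen-presenting cells there, while some turn into the nonclassical monocytes that crawl along vessel walls. In the liver, Kupffer cells, the resident macrophages of the sinusoids, are largely kept up by their own division, and classical monocytes can fill their niche when they are lost.

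*Ly6c2* (ENSMUSG00000022584), which encodes a GPI-anchored surface protein, lies on chromosome 15 from 75108158 to 75111970 on the minus strand of GRCm38 (GENCODE M21). Its neighbor *Ly6c1* (75044018 to 75048830, minus strand) is a near copy, and 134 of 777 windows of 90 bases along *Ly6c2* transcripts (17.2%) also occur in *Ly6c1*, so reads of the pair can be split or lost. In the tdTomato+ members *Ly6c2* was at 1980 CPM (counts scaled to a common total of all genes) and *Ly6c1* at 30.2 CPM. In the control members they were at 2170 and 0.837 CPM. The start regions of both genes are shown because the rule rests on telling them apart. Each is a RefSeq window of GRCm38.p6 from 250 bases before to 50 bases after a listed start, on the minus strand, chr15:75111922-75112221 for *Ly6c2* and chr15:75048788-75049087 for *Ly6c1*. Capitals mark GAGGAAGT, a site of the type bound by PU.1, a master regulator of myeloid cells.

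Ly6c2: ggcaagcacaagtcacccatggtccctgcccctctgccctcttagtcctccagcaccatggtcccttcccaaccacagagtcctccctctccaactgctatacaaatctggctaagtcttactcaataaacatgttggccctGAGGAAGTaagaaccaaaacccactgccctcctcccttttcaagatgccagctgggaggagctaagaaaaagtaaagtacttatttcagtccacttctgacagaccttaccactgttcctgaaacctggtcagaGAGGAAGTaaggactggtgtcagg

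Ly6c1: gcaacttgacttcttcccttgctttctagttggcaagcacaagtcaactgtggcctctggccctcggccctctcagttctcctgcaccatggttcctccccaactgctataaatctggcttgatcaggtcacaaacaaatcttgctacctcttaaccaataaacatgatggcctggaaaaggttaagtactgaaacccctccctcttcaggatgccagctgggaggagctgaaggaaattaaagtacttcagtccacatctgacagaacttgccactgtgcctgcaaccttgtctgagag

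Both strands were searched, and the *Ly6c2* window held 2 matches, 1 before and 1 after the start, and both lay before a second listed start, with the window chr15:75111888-75112187. The *Ly6c1* window held none. A second listed *Ly6c1* start, with the window chr15:75048614-75048913, had 1 match before it. Of 32851 RefSeq promoter windows of this length, 1052 (3.20%) held these letters. TTGCNNAA, the letters searched for the myeloid factor C/EBP, was in neither *Ly6c* window, and 3547 windows (10.8%) held it. The *Lyz2*, *Ccr2*, *Chil3*, *Cxcl9* and *Cxcl10* windows held neither, and 1 of the 2 *F13a1* windows held 1 PU.1 match. A match describes letters and is not a measured binding site.

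The members held 1591607 UMIs in the tdTomato+ and 1194282 UMIs in the control library. The median member had 15600.5 UMIs and 4030 genes in the tdTomato+ library and 14050 UMIs and 3652 genes in the control library, with median mitochondrial shares of 1.20% and 1.06%. Whole libraries held 203366009 UMIs in 17957 barcodes and 156771260 UMIs in 18444 barcodes. The libraries had 84 barcodes in common, and none of them was a member. No member of either library had an assembled γ or δ T cell receptor chain (0 of 98 and 0 of 82, which allow shares of up to 3.06% and 3.66%, or 3 cells each), against 132 of 17509 and 2519 of 18173 of all cells.

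The limit on *Csf3r*, the receptor of granulocyte colony-stimulating factor, reduced the number of members. It removed 100 tdTomato+ and 98 control cells that met every other condition. Of the members, 49 and 46 had exactly 1 *Csf3r* count, and 32 and 34 cells just outside had 2. At the *Ly6c2* limit, 4 and 3 members had 2 counts and 10 and 7 cells had 1. The limit on *Treml4*, a nonclassical monocyte gene, removed 94 and 24 cells that met every other condition, of which 26 and 11 had a single count.

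Summed over all members, genes that the rule did not use gave the profile of classical monocytes in both libraries, though not every member had it. *Chil3*, a chitinase-like protein of inflammatory monocytes and macrophages, measured 1044 CPM in tdTomato+ members and 659 CPM in control members. *F13a1*, the coagulation factor XIII A chain, was at 623 and 959 CPM. *Fn1*, fibronectin, was at 597 and 636 CPM. The proteoglycan gene *Vcan* was at 64.1 and 87.1 CPM, so the matrix genes lay close together in the 2 libraries. *Ctss*, a cysteine protease of antigen-presenting cells that was named as a marker without being part of the rule, was at 1781 and 1713 CPM. The myeloid regulators *Spi1*, which encodes PU.1, and *Klf4* were at 565 and 643 CPM and at 610 and 789 CPM. In B cells, which should lack *Chil3* and *F13a1*, 0% of 303 tdTomato+ and 0% of 371 control cells had a *Chil3* count, and 0% and 0.270% had one of *F13a1*, at median depths of 6605 and 5871 UMIs, against 15600.5 and 14050 in members. The shares among members were 67.3% and 62.2% for *Chil3* and 84.7% and 90.2% for *F13a1*. With each member thinned to 2000 UMIs (97 and 80 members deep enough), the *Chil3* shares were 48.5% and 45.0%. *Ly6c2* itself was found in 6.60% and 12.4% of B cells, and whether this is free RNA was not tested.

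Markers of other cells were low in the members, with exceptions. Neutrophil *S100a8* was at 2.51 and 15.1 CPM, *Ly6g* had no count, and the platelet list summed to 2.51 and 0 CPM. The T cell list summed to 10.7 and 51.1 CPM, the NK cell list to 16.3 and 52.8 CPM, the hepatocyte list to 346 and 446 CPM and the B cell list to 107 and 164 CPM, with *Ms4a1* and *Pax5* at 0. The list of 15 neutrophil and granule genes summed to 81.7 CPM in tdTomato+ and 2733 CPM in control members, and endothelial genes went the other way, as described next.

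**Figure D1:**
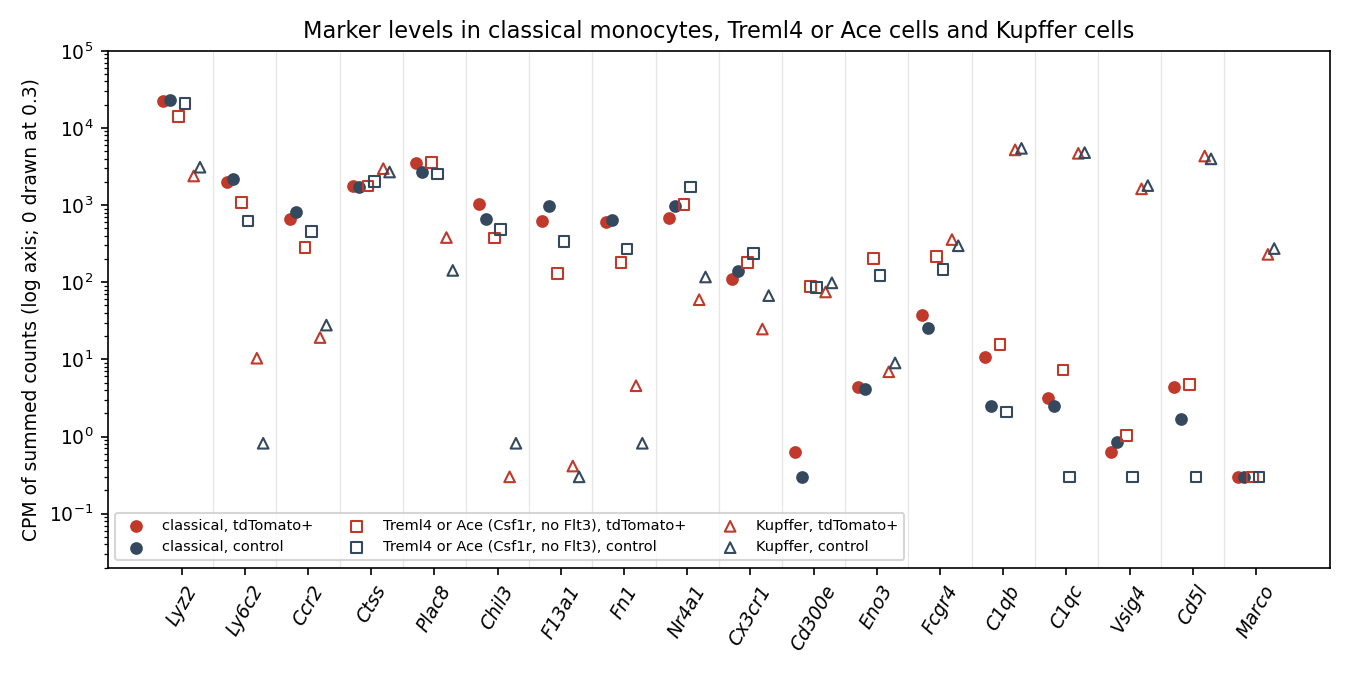
Level of 18 marker genes (CPM of summed counts, log axis, 0 drawn at 0.3) in classical monocytes (filled circles), *Treml4* or *Ace* cells with *Csf1r* and without *Flt3* (open squares) and Kupffer cells (open triangles), red for the tdTomato+ and dark blue for the control library. *F13a1* was at 623 and 959 CPM in classical monocytes and at 0.414 and 0 CPM in Kupffer cells, while *Eno3* was at 4.40 and 4.19 CPM in classical monocytes and at 201 and 123 CPM in the *Treml4* or *Ace* cells.

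Endothelial RNA separated the libraries. Of the tdTomato+ members, 44 of 98 (44.9%, 34.8 to 55.3) carried more than 1 count of 21 endothelial marker genes per 1000 UMIs, and 0 of 82 control members did, which allows a share of up to 3.66% (a count of 0 is taken to allow 3). These 44 are called endothelial-rich and the other 54 endothelial-poor. Most rich members lay far above the limit, 41 above 5 and 34 above 10 counts per 1000, with a median of 17.3 and a highest value of 32.9, whereas the highest control member was at 0.757. *Stab2*, the scavenger receptor gene whose locus drives the Cre, was at 1269 CPM in rich and 8.13 CPM in poor tdTomato+ members, and at 0.837 CPM in control members. The endothelial list summed to 15472 CPM in rich members, 148 CPM in poor members, 79.5 CPM in control members and 46444 CPM in sinusoidal endothelial cells of the tdTomato+ library (at least 5 *Stab2* counts and no *Ptprc*). The same list summed to 4697 CPM in Kupffer cells and 2998 CPM in B cells of that library, so it was not limited to monocytes. In the control library these sums were 803 and 25.7 CPM. Sinusoidal endothelial cells by this definition numbered 5550 of 17509 cells in the tdTomato+ library and 9 of 18173 in the control library.

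Rich members were also deeper, with a median of 17701 UMIs and 5006 genes against 14046.5 UMIs and 3602 genes in poor members. Their monocyte genes were at lower levels. The 15 monocyte identity genes summed to 10255 CPM in rich, 15946 CPM in poor and 13459 CPM in control members, and the classical monocyte list to 7894, 11676 and 8351 CPM. Whether a rich barcode held 1 cell or 2, or free RNA, was not tested. The share of classical monocytes depended on these cells. With all members the share was higher in the tdTomato+ library, with a log2 ratio of 0.31 (−0.13 to 0.75), an interval that covers no difference. With poor members alone (54 cells, 0.308%, 0.232 to 0.402) the log2 ratio was −0.55 (−1.07 to −0.036). Both ratios use shares of all cells, which include the 5550 tdTomato+ and 9 control sinusoidal endothelial cells. Shares without the endothelial cells were not calculated, so a lower share among the other cells is not shown.

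**Figure D2:**
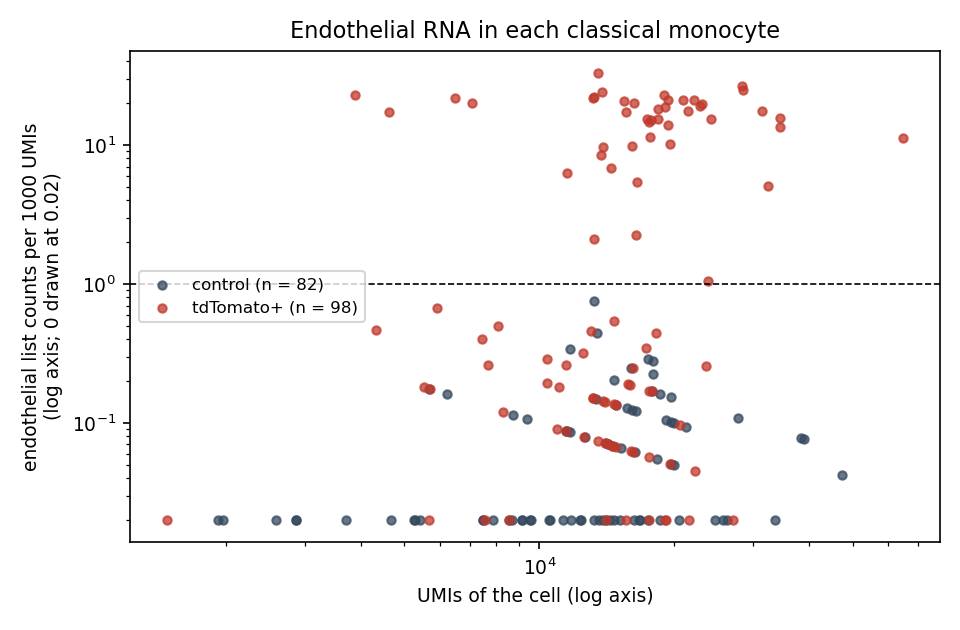
Counts of 21 endothelial marker genes per 1000 UMIs (vertical, log axis, 0 drawn at 0.02) against the UMIs of the cell (horizontal, log axis) in each of 98 tdTomato+ (red) and 82 control (dark blue) classical monocytes. The dashed line marks 1 count per 1000, above which lie 44 tdTomato+ members and no control member.

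Between the libraries, 325 of 3943 genes with at least 50 CPM in either library (8.24%) were at least 2-fold higher in tdTomato+ members and 49 (1.24%) at least 2-fold lower, with a median log2 ratio of 0.00 over all these genes. The endothelial list had 20 of its 20 tested genes among the higher ones. The 10 largest ratios included *Aqp1*, a water channel, at 587 and 0 CPM (at least 234-fold higher, taking a limit of 3 counts for a count of 0), *Gpihbp1*, which holds lipoprotein lipase at the vessel wall, at 533 and 0 CPM (at least 212-fold), and *F8*, coagulation factor VIII, at 364 and 0 CPM (at least 145-fold). *Kdr*, the receptor of vascular endothelial growth factor, was at 277 and 0 CPM, and *Stab2* at 685 and 0.837 CPM with a log2 ratio of 9.09 (7.19 to 14.98). The other 5 were *Sparc*, *Cd55*, *Ptprb*, *Meis2* and *Gpr182*. In poor members each of these 10 genes was at or below 8.13 CPM.

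None of 15 monocyte identity genes and none of 13 tested classical monocyte genes was past 2-fold in all members, with median log2 ratios of −0.06 and 0.12. Of 10 nonclassical monocyte genes tested, *Fabp4* and *Cd36*, which handle fatty acids, were higher and *Spn*, the sialophorin gene, was lower. In endothelial-poor members none of these 3 was past 2-fold, and *Fcgr4* was the 1 of 9 higher. Of 17 transcription factor genes tested, *Maf* was higher. *Cxcr4*, the bone marrow retention receptor, was the 1 of 3 chemokine receptors tested past 2-fold, at 108 and 250 CPM (log2 ratio −1.21, −1.49 to −0.93), but at 129 CPM in poor members (−0.95), short of 2-fold. *Il1b*, the gene of the inflammatory cytokine IL-1β, was at 57.8 and 246 CPM (−2.09, −2.44 to −1.75).

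Granule protease genes, which are made by myeloid progenitors, led the lower genes, and they came from few cells. *Mpo*, myeloperoxidase, had no count in tdTomato+ members and was at 761 CPM in control members, at least 404-fold lower. *Elane*, neutrophil elastase, was at 0.628 CPM from 1 count and at 785 CPM (log2 ratio −9.70, −15.6 to −7.80). *Prtn3*, proteinase 3, was at 13.8 and 913 CPM (−6.01, −6.73 to −5.44). Of the 82 control members, 6 held at least 10 counts of *Elane*, *Mpo*, *Prtn3* and *Ctsg* summed, and 0 of 98 tdTomato+ members did. These 6 cells had 19964 to 47331 UMIs, 98 to 225 *Ly6c2* counts each and at least 1 count of *Mki67* or *Top2a*, which mark dividing cells. A single one held 71.4% of the control *Mpo* counts and 49.0% of the *Elane* counts. All 6 had *F13a1*, with 26 to 62 counts. *Chil3* had counts only in those with 38991 and 33467 UMIs (14 and 58 counts), and the one with 47331 UMIs had 15 *Lyz2* counts and 1 *Ccr2* count. The data thus go partly against the label of classical monocytes for these 6 cells. Without the 6 cells *Elane* had 1 tdTomato+ and 0 control counts and *Ctsg* 2 and 1, too few to give a ratio. Of the other lower genes, *Gpnmb* drew 93.3% of its control counts from 1 cell.

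**Figure D3:**
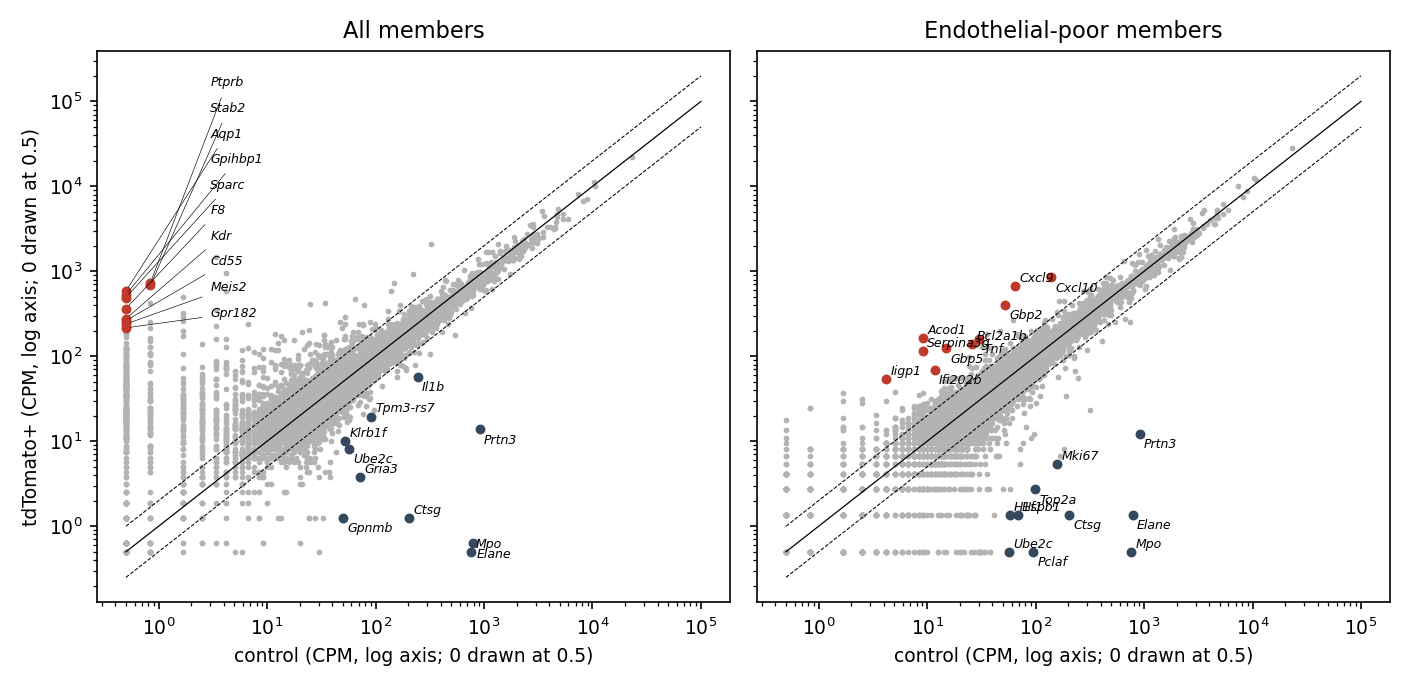
Level of each gene (CPM of summed counts, log axes, 0 drawn at 0.5) in tdTomato+ against control classical monocytes, for all members (left) and endothelial-poor members (right). The solid line marks equal levels and the dashed lines 2-fold differences. Red and dark blue points are the 10 genes with the largest ratios each way, among them *Stab2* (685 and 0.837 CPM) on the left and *Cxcl9* (668 and 64.5 CPM) on the right.

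Among endothelial-poor members, 65 of 3629 tested genes (1.79%) were at least 2-fold higher and 78 (2.15%) at least 2-fold lower in the tdTomato+ library, with a median log2 ratio of −0.03. No gene of the endothelial list reached 50 CPM here. *Cxcl9*, a chemokine induced by interferon-γ, measured 668 CPM in tdTomato+ members and 64.5 CPM in control members (log2 ratio 3.37, 3.02 to 3.74). *Cxcl10*, which binds the same receptor, was at 854 and 138 CPM (2.62, 2.38 to 2.88). The guanylate-binding proteins *Gbp2* and *Gbp5*, which act against intracellular pathogens, were at 407 and 52.8 CPM (2.94) and at 125 and 15.1 CPM (3.02). *Acod1*, which makes itaconate in activated macrophages, was at 165 and 9.21 CPM (4.11, 3.28 to 5.21), and *Tnf* at 161 and 30.1 CPM (2.41). The other leading genes were *Iigp1*, *Serpina3g*, *Ifi202b* and *Bcl2a1b*.

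Several of these genes rested on a few cells. *Cxcl9* was found in 10 of 54 tdTomato+ and 3 of 82 control members, and 1 cell held 54.2% and 92.2% of its counts. *Cxcl10* was found in 15 and 9 members, with 40.6% and 83.6% of the counts in 1 cell, and *Acod1* in 7 and 2 members. *Iigp1* was found in 7 and 3 members and *Serpina3g* in 9 and 8, with 47.6% of its tdTomato+ counts in 1 cell. Others were spread over more cells. *Gbp2* was found in 36 of 54 and 20 of 82 members, with 24.7% of the tdTomato+ counts in the highest cell. *Rtp4*, which helps receptors to the cell surface and is induced by interferon, was found in 39 of 54 and 28 of 82 members, at 172 and 68.7 CPM (log2 ratio 1.32, 0.91 to 1.75). Its median cell had 172 CPM among tdTomato+ members and 0 CPM among control members, and no single cell held more than 13.4% of its counts. *Isg15*, a ubiquitin-like antiviral protein, was found in 37 and 39 members at 442 and 163 CPM (1.44, 1.18 to 1.70).

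Over the whole list of 16 type I interferon response genes, 14 were tested in poor members, 3 of them (*Isg15*, *Ly6a* and *Rtp4*) were past 2-fold higher and none was past 2-fold lower. The median log2 ratio of the 14 was 0.84, and 0.45 with all members. *Irf7*, the factor that amplifies the interferon response, was at 578 and 304 CPM (0.93), short of 2-fold. *Ifit1*, below the level of 50 CPM in both libraries, was at 13.6 and 38.5 CPM. Other endothelial-poor cells of the same libraries gave list medians of 0.87 in Kupffer cells (269 and 80 cells), 1.07 in *Treml4* or *Ace* cells with *Csf1r* and without *Flt3* (66 and 41 cells) and 0.20 in B cells (274 and 371 cells), so the list median was also above 0 in other myeloid cells. *Cxcl9* had a log2 ratio of −0.54 (−0.82 to −0.25) in Kupffer cells and of 3.28 in the *Treml4* or *Ace* cells, from 133 and 8 counts in the latter, and *Cxcl10* of 1.61 and 1.91. In B cells *Cxcl9* had 2 and 0 counts.

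Some further genes differed between poor members and control. *Chil3* was at 1324 and 659 CPM (log2 ratio 1.01, 0.87 to 1.14), the 1 classical monocyte gene of 13 past 2-fold, and 0.61 when members with granule genes or *Cd209a* were left out too. *Il1b* was found in 11 and 25 members at 55.6 and 246 CPM (−2.13), with log2 ratios of −0.70 in the poor Kupffer cells and 0.63 in the poor *Treml4* or *Ace* cells. Cell cycle genes were lower, 5 of 5 tested, among them *Mki67* at 5.42 and 158 CPM in 4 and 13 members and *Top2a* at 2.71 and 99.6 CPM in 2 and 12 members. All 6 control members with granule genes carried cell cycle counts, and among endothelial-poor members without granule genes or *Cd209a* the log2 ratio was −3.02 for *Mki67* (−5.57 to −1.53), with counts in 3 and 6 members, 0.02 for *Tubb5* and −1.07 for *Stmn1* (−7.15 to 2.21). *Cd40*, a costimulatory receptor, was at 148 and 31.8 CPM. Immediate-early genes, which respond to tissue dissociation, had 0 of 14 past 2-fold either way, with a median log2 ratio of −0.11 in poor and −0.35 in all members.

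**Figure D4:**
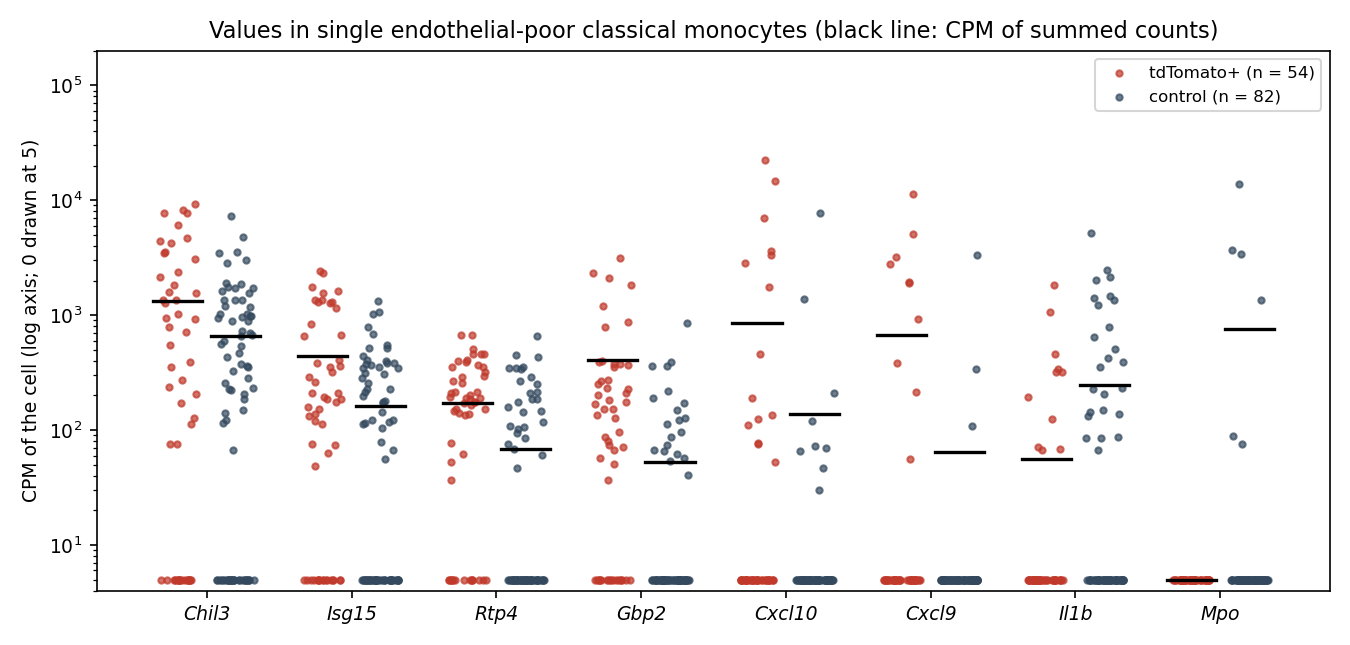
CPM of 8 genes in each endothelial-poor classical monocyte (log axis, 0 drawn at 5), red for 54 tdTomato+ and dark blue for 82 control members, with black lines at the CPM of the summed counts. *Rtp4* had counts in 39 and 28 members, whereas *Cxcl9* had counts in 10 and 3 members and *Mpo* in 0 and 6.

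The members were not uniform within a library. With each cell thinned to 2000 UMIs, the variance over the mean (Fano factor, near 1 for counting noise alone) had a median of 1.12 in tdTomato+ and 1.13 in control members over 1428 genes, and 70 genes reached 2 in both. MHC class II genes, which present antigen to CD4 T cells, were among the most variable. The invariant chain gene *Cd74* had a Fano factor of 35.2 and 31.4, *H2-Aa* of 14.7 and 14.6, *H2-Eb1* of 14.2 and 15.7 and *H2-Ab1* of 9.27 and 9.36. *Cmss1* ranked first by the smaller of the 2 libraries' values, with 46.6 and 72.9. *Lars2* (32.8 and 14.2) and *Gphn* (4.42 and 6.39) also had a place among the top 15. Chemokines and stress genes did as well, with *Cxcl10* at 15.9 and 14.3, *Cxcl2* at 8.87 and 11.7, *Ccl2* at 4.73 and 4.66 and *Fos* at 5.31 and 7.63, and so did *Chil3* at 7.69 and 4.66.

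Members with *Cd209a*, a lectin gene known from monocyte-derived dendritic cells and a subset of monocytes, differed from the rest in both libraries. *Cd209a* had at least 2 counts in 9 tdTomato+ and 15 control members and no count in 87 and 66, with a single count in the other 2 and 1, and this split was chosen after its values were seen. *H2-Aa* was at 7406 CPM with and 1663 CPM without *Cd209a* in the tdTomato+ library (log2 ratio 2.16, 2.06 to 2.25), and at 5580 and 685 CPM in the control library (3.03, 2.89 to 3.16). *Flt3*, the growth factor receptor of dendritic cells, was at 89.7 and 12.1 CPM and at 158 and 8.90 CPM. *Ciita*, the switch of MHC class II genes, was at 312 and 52.2 CPM and at 244 and 35.6 CPM. The monocyte genes went the other way in both libraries. *Chil3* was at 21.4 and 1232 CPM (−5.71) and at 7.18 and 873 CPM (−6.61), and *Ly6c2* was at 509 and 2170 CPM and at 951 and 2570 CPM. For *Ccr2* the tdTomato+ values were 333 and 710 CPM and the control values 811 and 815 CPM. Members with *Cd209a* had more UMIs, a median of 22215 against 14803 and of 18609 against 13208.5. Of the 9 tdTomato+ members with *Cd209a*, those with 13244, 24073, 32408 and 64647 UMIs were endothelial-rich. *Stab2* was at 509 CPM in the 9 and at 735 CPM in the tdTomato+ members without *Cd209a*. How far these barcodes shape the tdTomato+ values was not tested. In these cells dendritic cell genes stood beside *Ly6c2* and *Ccr2* with little *Chil3*, so the data go partly against the label of classical monocytes for them.

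**Figure D5:**
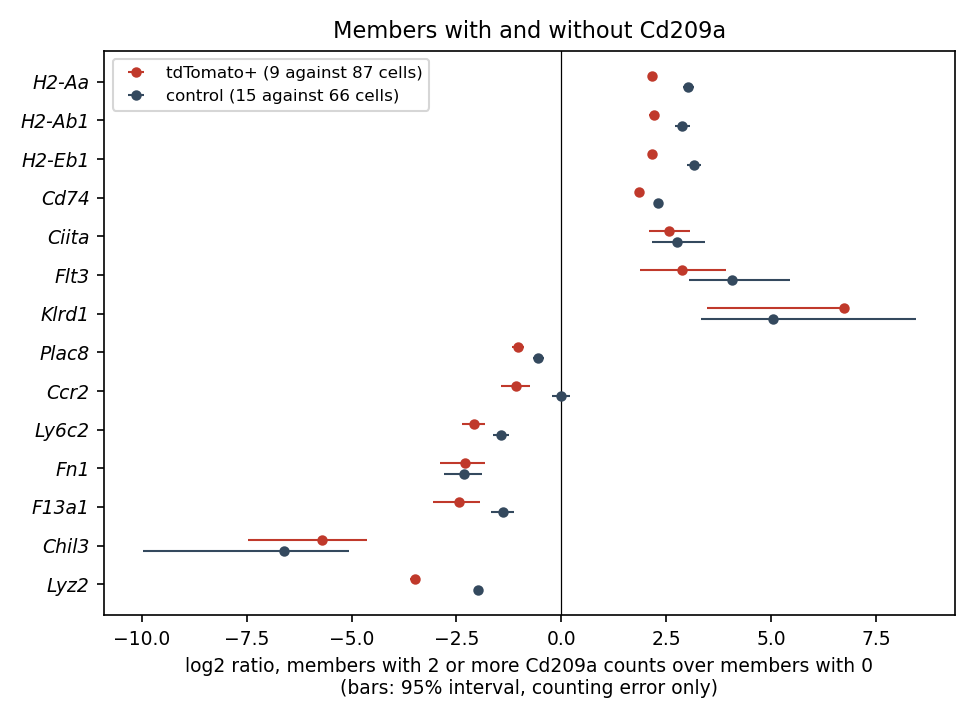
Log2 ratio of the level in members with at least 2 *Cd209a* counts over that in members with none (horizontal), by gene (vertical), red for tdTomato+ (9 against 87 cells) and dark blue for control (15 against 66 cells), with 95% intervals for counting error. *H2-Aa* lies at 2.16 and 3.03 and *Chil3* at −5.71 and −6.61, and the upper bar of *Klrd1* in the tdTomato+ library is open because members without *Cd209a* had no count.

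Cells with *Treml4* or *Ace*, the genes of nonclassical monocytes, made the first comparison. The set of 232 tdTomato+ and 89 control cells with at least 5 *Lyz2* counts and either gene also held dendritic cells. *Xcr1*, the chemokine receptor of type 1 dendritic cells, was at 386 and 487 CPM in it and at 21.4 and 0.837 CPM in classical monocytes, and *Tlr3* and *Itgae* were likewise lower in the monocytes. Against this set, 168 of 3450 tested genes (4.87%) were at least 2-fold higher in classical monocytes of both libraries and 141 (4.09%) lower. A narrower set, with at least 2 *Csf1r* counts and no *Flt3*, was therefore formed after the data had been seen and is called nonclassical-like. It held 132 tdTomato+ and 41 control cells, and 29 of 3373 genes (0.86%) were higher and 70 (2.08%) lower in classical monocytes of both libraries, with median log2 ratios over all genes of −0.03 and 0.02. Classical monocytes made up 42.6% of 230 classical and nonclassical-like cells in the tdTomato+ library (36.1 to 49.3) and 66.7% of 123 in the control library (57.6 to 74.9). The genes of the gates are left out of these counts, and the comparison is a description, because the gates pick cells by related genes.

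*Pclaf*, *H2ac4*, *Top2a* and *Mki67* led the genes higher in classical than in nonclassical-like cells. Of 4 cell cycle genes tested, 3 were higher in both libraries, with list medians of 3.66 and 4.28. Few members carried them, and *Mki67* had a count in 7.14% of tdTomato+ and 15.9% of control members. In the tdTomato+ library the 2 highest *Mki67* values, 1176 and 278 CPM, were in endothelial-rich members with 64647 and 32408 UMIs. Among endothelial-poor tdTomato+ cells the direction was not kept. *Mki67* was at 5.42 CPM in classical and 7.71 CPM in nonclassical-like cells there, *Top2a* at 2.71 and 3.85 CPM and *Pclaf* at 0 and 2.57 CPM. *F13a1*, *Fn1* and *Ccl2* were also among the higher genes. *F13a1* was at 623 against 130 CPM in the tdTomato+ and 959 against 339 CPM in the control library (log2 ratios 2.26 and 1.50). *Fn1* was at 597 against 180 CPM and 636 against 268 CPM (1.73 and 1.24). *Ccl2*, the chemokine that draws CCR2-bearing cells, was at 298 against 74.3 CPM and 330 against 41.6 CPM (2.00 and 2.95). *Ccl2* was the 1 higher of 12 chemokines and cytokines tested, of which 2 were lower, and none of 4 chemokine receptors was past 2-fold in both libraries. The differences in *F13a1*, *Fn1* and *Ccl2* had the same direction in both libraries. Of 13 classical monocyte genes tested, however, only 3, *F13a1* and *Fn1* among them, were past 2-fold in both, with list medians of 0.58 and 0.61. *Chil3* was at 1044 against 375 CPM and at 659 against 482 CPM (1.48 and 0.45). Without the members that carried *Cd209a*, 16 genes in all were at least 2-fold higher in both libraries, in place of 29.

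Nonclassical monocyte genes were lower in classical monocytes, 10 of 15 tested in both libraries, with medians of −1.38 and −1.92. *Cd300e*, an activating receptor of nonclassical monocytes, was at 0.628 against 87.8 CPM and at 0 against 85.3 CPM, at least 33.9-fold lower in the control library. *Eno3*, a muscle-type enolase typical of these cells, was at 4.40 against 201 CPM and 4.19 against 123 CPM (log2 ratios −5.42 and −4.75). *Fcgr4*, a receptor for IgG, was at 37.1 against 217 CPM and 25.1 against 146 CPM (−2.54 and −2.52), and the ribonuclease gene *Ear2* at 73.5 against 459 CPM and 37.7 against 302 CPM. *Spn*, *Itgal*, *Adgre4*, *Cd36*, *Pou2f2*, *Ceacam1* and *Cd300ld* made up the rest. *Nr4a1*, the transcription factor on which nonclassical monocytes depend, was at 687 against 1024 CPM and 983 against 1718 CPM (−0.58 and −0.81), short of 2-fold, and so was the fractalkine receptor gene *Cx3cr1* (−0.73 and −0.76).

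Kupffer cells, taken as cells with at least 5 *C1qa* and at least 1 *Clec4f* count (553 tdTomato+ and 116 control cells), stood farther away. Against them, 355 of 4108 genes (8.64%) were at least 2-fold higher in classical monocytes of both libraries and 588 (14.3%) lower, with medians over all genes of −0.03 and −0.12. Of 13 tested classical monocyte genes, 11 were higher, with medians of 5.30 and 5.46. *F13a1* was at 0.414 and 0 CPM in Kupffer cells, at least 391-fold higher in control monocytes, and *S100a4*, a calcium-binding protein of motile cells, was at 3.45 and 0.817 CPM there (log2 ratios 8.42 and 9.62). Complement and scavenger genes were lower, 13 of 14 tested Kupffer cell genes. *C1qb*, a chain of complement C1q, was at 5191 and 5434 CPM in Kupffer cells against 10.7 and 2.51 CPM in monocytes, *Vsig4*, a complement receptor, at 1622 and 1787 CPM against 0.628 and 0.837 CPM, and the scavenger receptor gene *Marco* at 230 and 273 CPM against 0 in both, at least 122-fold and 109-fold lower.

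Iron and lipid handling also lay on the Kupffer side, with 7 of 10 tested genes lower in monocytes and medians of −2.11 and −2.72. The iron exporter gene *Slc40a1* was at 2616 and 2930 CPM in Kupffer cells, and *Apoe*, a lipoprotein that sinusoidal macrophages secrete, at 9543 and 9341 CPM (log2 ratios −2.51 and −3.10). Cathepsin and lysosome genes were lower for 5 of 12 (*Ctsb*, *Ctsc*, *Ctsd*, *Grn* and *Lgmn*). *Csf1r*, the growth factor receptor of the lineage, was at 350 and 450 CPM in monocytes and 1793 and 1781 CPM in Kupffer cells (−2.36 and −1.98).

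Of 17 transcription factors tested, 5 were higher in monocytes than in Kupffer cells of both libraries and *Maf* was lower. *Klf4*, which directs monocyte differentiation, was at 610 and 789 CPM against 89.8 and 92.4 CPM (log2 ratios 2.76 and 3.09). *Cebpb*, needed for monocyte survival, was at 1863 and 2795 CPM against 720 and 1038 CPM (1.37 and 1.43), and *Nr4a1* was at 687 and 983 CPM against 59.3 and 117 CPM. The other 2 were *Klf2* and *Bach1*, whereas *Spi1* was at 565 and 643 CPM against 581 and 552 CPM. Of 14 immediate-early genes, 13 were higher in monocytes, with medians of 1.83 and 2.08, among them *Fos* at 2.75 and 2.55, so the *Klf* and *Nr4a1* values moved together with genes that respond to cell handling, whose part was not tested. Among chemokines and cytokines, *Cxcl2*, *Ccl2*, *Ccl3*, *Ccl4* and *Ccl9* were higher and *Il1b*, *Il18* and *Ccl24* lower of 13 tested. *Ccl9* had the largest ratio of these with 5.72 and 4.08, and *Ccl2*, the ligand of CCR2, had 2.12 and 1.92.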

How the data were processed

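Single-cell RNA of sorted CD45+ liver cells was measured with a 10x 5′ kit in 1 library per group. The authors deposited raw UMI counts per gene and barcode from Cell Ranger 10.0.0 (mm10 in the submitters' notes), for 33696 genes, of which 31961 IDs matched the gene name table. The deposited contig lists were used only to look for member barcodes. No doublet caller was run, and leaving out the tenth of members with the most UMIs served as an alternative. A 5′ count depends on the annotated start of a gene and cannot be set against other genes.

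Counts were summed over members as CPM. Ratios carry 0.5 added counts and exact conditional binomial intervals, shares exact Clopper-Pearson intervals, all at 95%. A gene had to reach 50 CPM in 1 group and a 2-fold ratio. No test was made with 1 library per group. The calculation was tested on simulated data. Named genes were those of the rule, of 25 fixed lists, the 10 largest ratios each way and the 15 largest spreads. Further named genes, the rich and poor groups, the *Cd209a* and granule splits and the per-cell counts were chosen after values were seen. Members and lists were chosen with earlier results of these data known. The scripts ran under python 3.11.15 with scipy 1.17.1, numpy 2.4.6, matplotlib 3.10.9 and pandas 2.3.3. Some genes are not reported here.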

Additional observations from a re-analysis of the deposited data

Results flagged for a closer look

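A total of 3 genes lay on opposite sides in the 2 libraries when classical monocytes were compared with another cell type, each by at least 2-fold. The difference between the libraries was not tested. *Il1b* had a log2 ratio against all *Treml4* or *Ace* cells of −1.04 in the tdTomato+ and 2.05 in the control library, from 57.8 against 120 CPM and 246 against 59.3 CPM. *Cxcl9* had a log2 ratio against Kupffer cells of 1.50 and −1.53. *Lpl*, lipoprotein lipase, had a log2 ratio against nonclassical-like cells of 1.04 and −1.33.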

How the results depend on the processing

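No paired analysis was possible because each group is 1 library without replicate numbers, and for the same reason no library could be left out. The tdTomato+ share of 0.560% was 1.17% with cells thinned to 4000 UMIs before the rule, 0.308% without endothelial-rich members and 1.13% without the *Csf3r* limit. The control share of 0.451% was 0.347% under stricter count limits, 0.927% with thinned cells and 0.990% without the *Csf3r* limit. The log2 ratio of the shares of 0.31 was −0.55 without endothelial-rich members. Against 325 genes higher in tdTomato+ members, the total was 65 without endothelial-rich members (31 of them among the 325), 507 with thinned cells, 701 at a minimum of 20 CPM, 3858 with no minimum and 55 with all doubtful members left out. Against 49 lower genes, the totals were 78, 272, 172 and 1874 under the first 4 of these settings, 26 without members with granule genes and 90 without members with *Cd209a*. The 168 genes higher than in *Treml4* or *Ace* cells became 72 with the mean of per-cell CPM, 91 with thinned cells, 693 with no minimum and 29 with the narrower comparison cells. The 141 lower genes became 240 at 20 CPM, 762 with no minimum and 70 with the narrower cells. Against Kupffer cells, the 355 higher genes became 1358 with no minimum, and the 588 lower genes became 901 at 20 CPM and 2143 with no minimum. *Elane* had log2 ratios of 0.90 and *Ctsg* of 0.050 without members with granule genes, and both had 1.74 with all doubtful members left out, where *Gria3* had 2.27 and *Klrb1f* 0.36. *Elane* rests on 1 count against 0 in both settings, and *Ctsg* on 2 against 1 and then 1 against 0, so these ratios come from the added 0.5 counts. The cause of these moves was not tested, except that fewer or more cells and genes enter by construction. The settings on the *Csf3r* limit, granule genes, *Cd209a*, all doubtful members and the narrower cells were added after seeing the data. Of the values recomputed for named genes, 200 of 200 against Kupffer cells stayed at least 2-fold in the same direction in both libraries. Against nonclassical-like cells 87 did and 13 fell short of this. Between the libraries, 153 values stayed within the counting error of the main ratio, 61 lay outside it and 6 changed direction.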

Other observations

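The cells that met every condition but the *Csf3r* limit (100 tdTomato+ and 98 control) carried monocyte genes too. *Ly6c2* reached 2591 and 3014 CPM in them (tdTomato+ first), *Chil3* at 1221 and 739 CPM, *F13a1* at 839 and 1422 CPM and neutrophil *S100a8* at 12.8 and 59.5 CPM, with *Ly6g* at 0. Endothelial RNA marked 47 and 1 of them, and 3 and 6 held at least 10 counts of the 4 granule protease genes.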
